A study of Mus musculus with 39 samples.

Results

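The subunits of oxidative phosphorylation were followed as transcripts through kidney, liver, lung and skin of perforin-deficient mice. Members were all genes whose symbol matched a fixed naming pattern for the nuclear-encoded subunits of complexes I to V (Ndufa, Ndufb, Ndufc, Ndufs and Ndufv genes, Sdha to Sdhd, Uqcr genes, Cox4 to Cox8 genes and Atp5 genes). The pattern found 84 of the 24537 genes in the table of kidney, liver and lung, and 90 of the 52508 genes in the table of skin, where 6 pseudogene symbols (such as Atp5k-ps2) joined the same 84. Of the 84, 37 belonged to complex I, 4 to complex II, 8 to complex III, 18 to complex IV and 17 to complex V. The pattern also takes in Cox7a2l, a factor of respiratory supercomplexes, and Atp5s and Atp5sl, a coupling factor and its relative, which are not catalytic subunits. Subunits encoded in mitochondrial DNA and subunits with other names, such as Cyc1, were not members.

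All mice were C57BL/6 Prf1-/-, so no comparison here had a wild-type group. Perforin is the pore-forming protein of cytotoxic lymphocytes, and the mice serve as a model in which senescent cells are cleared poorly by immune cells. Young mice were 3 months old and untreated. Old mice were sacrificed at 20 months, after intraperitoneal injections from 18 months of age on 2 consecutive days a month for 2 months, either with a DMSO-based vehicle or with ABT-737 at 25 mg/kg, an inhibitor of anti-apoptotic BCL-2 family proteins that drives senescent cells into apoptosis. Each tissue gave 4 young libraries (skin 3), 3 vehicle libraries and 3 ABT-737 libraries, 39 in all, of bulk RNA from perfused tissue sequenced from the 3′ end. The treatment labels of ABT-737 replicates 4 and 5 read ABT-738 and ABT-739, and these libraries were placed by their titles. In bulk tissue, fewer cells of a type and less RNA per cell cannot be told apart.

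Electrons from NADH enter the respiratory chain at complex I, and those from succinate enter at complex II, which is also an enzyme of the citric acid cycle. They pass by way of ubiquinone, complex III and cytochrome c to oxygen at complex IV, and the proton gradient built on the way drives ATP synthesis by complex V. The kidney tubule, the hepatocyte and muscle are known for high mitochondrial content, and several complex IV subunits exist as isoforms, of which Cox6a2, Cox7a1 and Cox8b are typical of heart and skeletal muscle (Cox7a1 and Cox8b also of brown fat) and Cox4i2 of lung.

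The counts assigned to genes ranged from 1431814 to 3513311 per library in kidney, 223957 to 891116 in liver, 1046508 to 2600092 in lung and 1493411 to 3842808 in skin, so liver was the shallowest tissue. Reads were assigned to Prf1 itself in every library of kidney, lung and skin and in 6 of the 10 liver libraries, at no more than 169 counts. Since 3′-end reads may lie outside the deleted part of the gene, these counts check nothing about the genotype. Some libraries stood apart. Lung ABT-737 replicate 4 held fat transcripts, with summed brown adipocyte markers at 545 CPM (counts scaled to a common library size) and adipocyte markers at 6547 CPM, against at most 21.9 and 381 CPM in the other lung libraries. Lung ABT-737 replicate 3 had the most blood transcripts (globins and red-cell genes), at 48080 CPM against 1417 to 16850 in the other lung libraries. Lung vehicle replicate 5 had the least cardiac muscle signal, 87.2 CPM. In skin, summed skeletal muscle markers ran from 85120 to 123300 CPM in the young libraries, from 13490 to 60000 in the vehicle libraries and from 21740 to 72570 in the ABT-737 libraries. Results that rest on these libraries are given with and without them.

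To show what the members carry at their start sites, RefSeq promoters (build GRCm38.p6, 250 bases before to 50 after the start) were matched for 69 of the 84 genes. They were searched on both strands for short core motifs of 4 factors known to control respiratory genes. The NRF1 core GCGCATGCG was held by 11.6% of the members and by 1.95% of all 27025 genes with a promoter. Its form with a free sixth base, GCGCANGCG, which includes the first, was held by 29% against 7.03%. The ETS core CCGGAAG was held by 23.2% against 9.93%, the YY1 core AAGATGGCG by 11.6% against 1.64%, and the ERR core TCAAGGTCA by 2.9% against 0.466%. A match describes letters in the window and not a bound site. 5 promoters are printed for genes on which later results turn, each from its minus strand, 5′ to 3′, with every motif match in capitals (either strand, overlapping matches merged). Atp5g3 (chr2:73911277-73911576) encodes the membrane c subunit of complex V and was lower in old liver and higher after ABT-737. Sdhd (chr9:50603800-50604099) encodes a membrane anchor of complex II and was lower in both old kidney and old liver. Atp5k (chr5:108434350-108434649), the e subunit of complex V, and Cox8b (chr7:140900397-140900696), the muscle isoform of subunit 8 of complex IV, were lower in old skin. Uqcrfs1 (chr13:30545267-30545566), the Rieske iron-sulfur protein of complex III, was lower in old kidney and liver and higher in old lung. Atp5g3 held the NRF1 form with a free base and the ERR core, Sdhd those and the ETS core, and Atp5k 2 overlapping NRF1 cores and the ETS core. Uqcrfs1 and Cox8b held none of the motifs searched.
Atp5g3: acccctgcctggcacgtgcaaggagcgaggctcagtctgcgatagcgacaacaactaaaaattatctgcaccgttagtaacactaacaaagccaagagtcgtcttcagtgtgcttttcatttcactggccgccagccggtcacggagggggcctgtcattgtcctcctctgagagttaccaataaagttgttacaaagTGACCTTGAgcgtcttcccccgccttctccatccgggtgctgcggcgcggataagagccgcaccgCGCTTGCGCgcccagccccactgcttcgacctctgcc
Sdhd: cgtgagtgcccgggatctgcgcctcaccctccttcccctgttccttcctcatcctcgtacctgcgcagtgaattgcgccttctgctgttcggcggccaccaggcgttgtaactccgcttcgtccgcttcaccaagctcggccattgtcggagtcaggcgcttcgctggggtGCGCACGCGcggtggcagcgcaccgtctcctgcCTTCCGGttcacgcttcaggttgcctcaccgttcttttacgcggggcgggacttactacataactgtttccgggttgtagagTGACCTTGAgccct
Atp5k: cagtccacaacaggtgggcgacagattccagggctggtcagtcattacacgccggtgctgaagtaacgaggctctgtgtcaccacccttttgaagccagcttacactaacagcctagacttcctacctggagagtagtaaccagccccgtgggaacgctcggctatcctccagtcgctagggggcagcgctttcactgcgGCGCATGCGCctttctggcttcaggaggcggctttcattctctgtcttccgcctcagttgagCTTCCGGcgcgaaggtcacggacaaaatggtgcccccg
Uqcrfs1: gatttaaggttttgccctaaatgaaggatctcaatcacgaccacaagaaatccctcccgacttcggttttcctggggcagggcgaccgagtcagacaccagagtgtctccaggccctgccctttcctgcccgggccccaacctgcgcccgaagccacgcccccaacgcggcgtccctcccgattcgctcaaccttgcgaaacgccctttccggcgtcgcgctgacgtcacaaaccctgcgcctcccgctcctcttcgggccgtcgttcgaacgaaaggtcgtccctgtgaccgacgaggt
Cox8b: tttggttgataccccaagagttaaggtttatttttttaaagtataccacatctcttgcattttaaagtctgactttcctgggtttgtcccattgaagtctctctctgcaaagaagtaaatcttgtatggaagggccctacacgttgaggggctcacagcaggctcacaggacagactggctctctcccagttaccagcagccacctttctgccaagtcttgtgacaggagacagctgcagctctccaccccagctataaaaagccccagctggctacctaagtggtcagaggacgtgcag

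The first question was how the subunits differed among the tissues of young mice. Most subunit transcripts of complexes I, II, III and V were higher in kidney and liver than in lung. The complex IV isoforms Cox6a2, Cox8b, Cox4i2 and Cox6b2 stood higher in lung. They passed a filter on low counts only through lung, so that direction was set in advance. These levels come from 1 scaling of the 12 young libraries of kidney, liver and lung together, by the trimmed mean of M-values (TMM), and so differ from the within-tissue levels below. Skin was counted in a separate table and is not set against them. Tests throughout are edgeR's quasi-likelihood test over all genes past a filter on low counts, and a gene is called when its Benjamini-Hochberg adjusted p over all those genes is under 0.05. Fold changes are log2, with the standard error (SE) of the fit.

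Between young kidney and young lung, 74.7% of all genes tested were called in either direction. Of 81 members tested, 5 passed the filter only where they were high (Cox6a2, Cox8b, Cox4i2 and Cox6b2 through lung, Atp5g2 only with both kidney and liver) and are left out of these counts. Of the other 76, 73 were called, 72 of them higher in kidney, with a median log2 fold change of 2.01 against 0.03 over all genes. Between young liver and young lung, 69.4% of all genes and 68 of the 76 were called, 66 of them higher in liver, with a median of 1.52 against -0.33 over all genes. Between young kidney and young liver, 51.5% of all genes and 50 of the 76 were called, 49 of them higher in kidney, with a median of 0.53 against 0.34 over all genes. Over all 81 the medians stood 1.97, 1.81 and 0.20 above the median gene in the 3 comparisons. Under scaling by total counts that distance was 1.95, 1.80 and 0.20. The raw median of the 81 then moved to 0.70 in liver against lung and to 1.203 in kidney against liver. In liver against lung, 51 of the 81 were then called higher and 12 lower, against 66 and 6 of the 81 under TMM. The 81 include the 5 members left out above, which passed the filter only where they were high.

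All 4 complex II subunits and all 7 complex III subunits tested were called higher in kidney and in liver than in lung, with medians over lung of 2.89 and 2.45 for complex II and of 2.23 and 1.79 for complex III. Among members that were higher, the largest log2 difference from lung was in Uqcrfs1, at 670 to 767 CPM in the 4 kidney libraries, 461 to 715 in the 4 liver libraries and 41.2 to 54.4 in the 4 lung libraries. Its log2 fold change over lung was 3.93 (SE 0.17) in kidney, adjusted p = 1.604e-18, and 3.63 (SE 0.17) in liver, adjusted p = 1.36e-17. Cox5a, a subunit of complex IV, followed at 433 to 520, 321 to 421 and 31.0 to 44.2 CPM in kidney, liver and lung. Ndufb6, an accessory subunit of the membrane arm of complex I, stood at 205 to 247, 164 to 286 and 17.2 to 25.6 CPM. In all 3 genes the lung libraries lay far under the others and kidney and liver were closer together, with kidney overlapping liver in Uqcrfs1 and Ndufb6 and not in Cox5a.

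Between kidney and liver the differences ran mostly toward kidney. Uqcrq, a small subunit of complex III, was the only member called lower in kidney, at 835 to 1145 CPM there and 1408 to 2314 in liver. Under scaling by total counts it was not called, and 78 of all 81 members were called higher in kidney. Cox7a1, the muscle isoform of subunit 7a, was at 35.6 to 42.3 CPM in kidney against 0 to 10.6 in liver and 5.48 to 10.4 in lung, with 514 counts in all in kidney and 7 in liver. Its ratio of kidney to liver was 9.69 (95% counting interval 4.67 to 24.2). Cox8a, the ubiquitous partner of Cox8b, was at 349 to 528 CPM in kidney and 146 to 201 in liver, a log2 difference of 1.34 (SE 0.17), adjusted p = 6.873e-08.

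Beside the 4 members that passed the filter through lung, whose difference from lung the filter had set and which are given by their levels alone, Ndufa4l2 was called lower in kidney and in liver than in lung, and Atp5s in liver. Cox6a2, the heart and muscle isoform of subunit 6a, was at 175 to 244 CPM in lung, 3.94 to 7.76 in kidney and 0 to 2.15 in liver. Its ubiquitous partner Cox6a1 had the opposite order, with 363 to 563 CPM in lung, 2397 to 2925 in kidney and 1657 to 2096 in liver. Cox4i2, the isoform of subunit 4 known from lung, was at 29.9 to 64.0 CPM in lung and had at most 5 counts in any kidney library and at most 1 in any liver library. For Ndufa4l2, with few counts in liver, the ratio of lung to liver was 9.64 (95% counting interval 4.08 to 29.9). Such an interval covers counting error only. Cox8b and Cox6b2, the testis isoform of subunit 6b, had 0 counts in every young liver library. In young lung Cox8b was at 5.02 to 14.3 CPM and Cox6b2 at 10.2 to 16.9 CPM. The lung libraries also held heart transcripts, among them Myh6 at 34.2 to 54.9 CPM by the within-tissue scaling. By that scaling, summed cardiac muscle markers were at 1076 to 1983 CPM in young lung, 2.76 to 5.56 in young kidney and 1.94 to 5.76 in young liver. The part of heart transcripts in the muscle isoforms in lung was not tested.

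**Figure D1:**
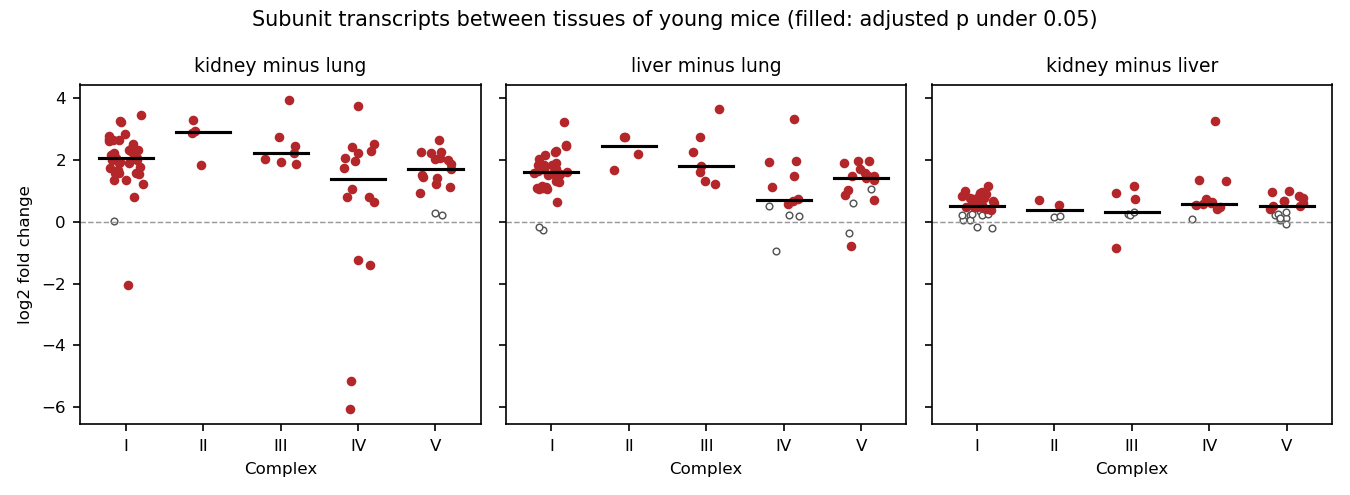
Log2 fold changes of the members between young tissues, 1 point per subunit grouped by complex, with filled points at an adjusted p under 0.05 (kidney minus lung, liver minus lung, kidney minus liver, 4 libraries each). Bars are the medians of the points drawn in each complex. Cox6a2, Ndufa4l2, Cox8b, Cox4i2 and Cox6b2 are not drawn in the panels with liver, where they were at or near 0 counts and have no interpretable fold. Complexes I, II, III and V sit mostly above 0 against lung. Over all 81 members tested, the medians against lung, not drawn, were 2.0 and 1.49. In kidney minus lung, the low points of complex IV are the restricted isoforms that passed the filter only through lung, which set their direction.

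As a share of all counts, the members took up different ranges in the tissues. They made up 5.14% to 5.58% of counts in young kidney, 4.23% to 4.8% in vehicle kidney and 4.46% to 5.28% in ABT-737 kidney, so young and vehicle kidney did not overlap. In liver the ranges were 2.34% to 2.75%, 1.74% to 2.71% and 2.40% to 2.73%. Young and ABT-737 liver overlapped, and vehicle liver overlapped them only through replicate 3, the shallowest library, at 2.71%. In lung they were 1.56% to 1.79%, 1.60% to 1.84% and 1.31% to 2.35%, with ABT-737 replicate 4 highest. In skin they were 2.88% to 3.69% in young, 1.71% to 2.30% in vehicle and 1.86% to 2.52% in ABT-737 libraries, and young skin lay above both old groups.

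**Figure D2:**
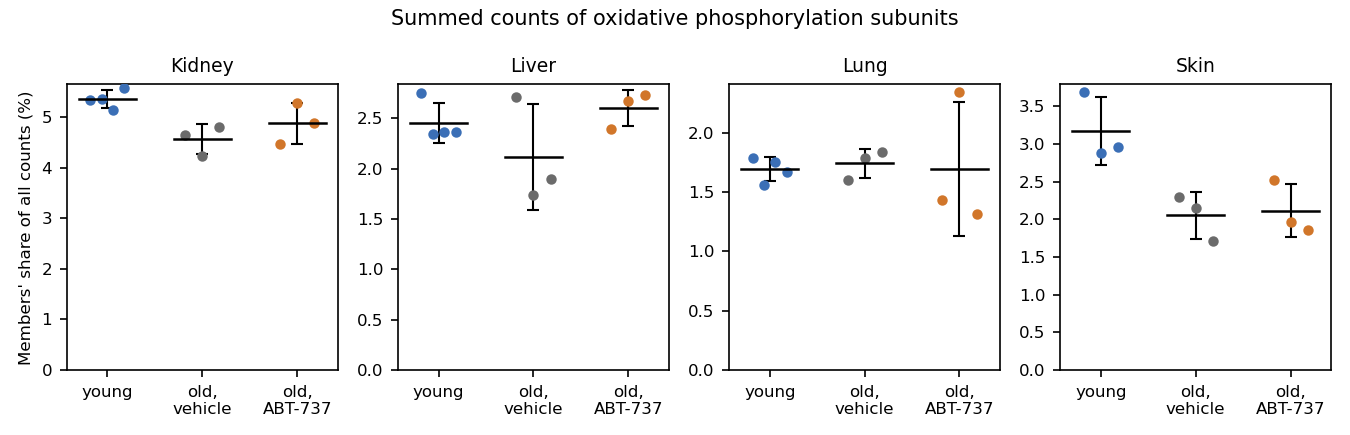
Summed counts of the members as a percent of all counts in each library (1 point per library, bar at the group mean) in the 4 tissues. Young kidney (5.14% to 5.58%) and young skin (2.88% to 3.69%) lie above their vehicle groups, while liver and lung groups overlap.

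In kidney, the comparison of vehicle-treated old with young mice showed a small decrease of 7 members and no increase. At the level of all genes, 5.50% of those tested were called lower. The 7 of 80 members called lower came from complex V (Atp5f1), complex II (Sdhd, Sdha), complex III (Uqcrc2, Uqcrfs1) and complex I (Ndufb5, Ndufb2). The median log2 fold change over the 80 was -0.22 against 0.01 over all genes, and 69 of them were negative, including all 7 of complex III. Without Cox6a2, which passed the filter only through young kidney, the median was also -0.22 and 7 members were called lower. Atp5f1, the b subunit of the complex V stator, was at 1052, 1121, 1168 and 1248 CPM in young kidney, 745, 631 and 781 in vehicle kidney and 1044, 1090 and 994 in ABT-737 kidney. The vehicle libraries lay under all others, and the log2 fold change from young was -0.67 ± 0.13 (SE) with adjusted p = 0.003435. Sdhd was at 405, 475, 401 and 471 CPM in young, 284, 240 and 320 in vehicle and 278, 307 and 341 in ABT-737 libraries. Both old groups were under the young range in Sdhd, with a log2 fold change between vehicle and young of -0.64. Uqcrc2, a core protein of complex III, went from 283 to 348 CPM in young to 181 to 233 in vehicle libraries, and Uqcrfs1 from 747 to 870 to 422 to 692. Sdha, the flavoprotein of complex II, was at 452 to 545 and 313 to 408 CPM. Core subunits of complex I did not pass the test, with log2 fold changes of -0.18 (SE 0.15) for Ndufs1 and -0.12 (SE 0.15) for Ndufv1.

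In kidney, calls in the wider mitochondrial lists were mostly toward lower, but the genes called lower were a minority of each list given here. Of all genes tested, 5.50% were called lower. Of 20 citric acid cycle and pyruvate dehydrogenase genes, 4 were called lower (among them Sucla2, a subunit of succinyl-CoA ligase, log2 -0.85, and Dlat, of pyruvate dehydrogenase, log2 -0.60) and none higher, with 18 negative. Of 23 carriers and import genes, 3 were called lower, including the outer-membrane channel Vdac2 (log2 -0.83) and the import receptor Tomm20 (log2 -0.74). Of 48 assembly factors, 4 were called lower, including Ndufaf3 and Coa6. Among 16 regulators the only call was the mitochondrial DNA helicase Twnk, higher by 0.52 on the log2 scale. Beside these, all 14 immune markers tested were called higher, with their sum at 264 to 323 CPM in young and 1211 to 1827 in vehicle kidney, while the summed kidney markers stayed between 13280 and 15740 CPM in all 10 libraries. Blood transcripts were also higher, with 5 of 6 markers called (median log2 2.30) and sums of 1035 to 5900 CPM in young, 11630 to 11680 in vehicle and 7583 to 11290 in ABT-737 kidney. The part of the immune and blood transcripts in the subunits' decrease was not tested. Leaving out 1 library at a time left 2 to 6 members called lower, where 2.24% to 7.38% of all genes were, with 6 members without vehicle replicate 3 and 4 or fewer without any of the others.

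ABT-737 in kidney moved no member past the test. Of all genes 1.35% were called between ABT-737 and vehicle, and 0 of 80 members, of which 7 had an unadjusted p under 0.05 and DESeq2 called 1 (Atp5f1). The median of the members was 0.14, and 66 of 80 were positive (58 under scaling by total counts), against a median of 0.01 over all genes. Between ABT-737 and young kidney, 2.12% of all genes and 0 of 80 members were called, with 10 members at an unadjusted p under 0.05 and 1 called by DESeq2 (Sdhd), and the median was -0.11. Without ABT-737 replicate 5, 3 members (3.70%) were called, beside 1.89% of all genes. These comparisons share libraries. In the values given above, the ABT-737 libraries of Atp5f1 (994 to 1090 CPM) lay above the vehicle range, and 1 of them was inside the young range. Immune markers were called lower with ABT-737 in 9 of 14 cases, at a sum of 437 to 710 CPM.

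In liver, members were also called lower in old mice, and ATP synthase subunits were the largest group among them. Between vehicle and young liver, 10.8% of all genes and 17.8% of the members tested were called lower, against 5.50% and 8.75% in kidney. Of 73 members tested, 13 were called lower and none higher, 6 of them in complex V (Atp5f1, Atp5g3, Atp5c1, Atp5b, Atp5o, Atp5a1), 2 in complex II (Sdha, Sdhd), 2 in complex III (Uqcrc2, Uqcrfs1), 2 in complex I (Ndufb6, Ndufb5) and Cox5a in complex IV. The median over the members was -0.18, against 0.02 over all genes, and 23 of 73 were positive. Atp5g3 was at 2151, 1298, 1468 and 1565 CPM in young, 393, 599 and 746 in vehicle and 947, 1258 and 1508 in ABT-737 liver. The vehicle libraries were under all others, and the log2 fold change from young was -1.47 ± 0.28 (SE) with adjusted p = 0.001686. Of its partner genes for the same c subunit, Atp5g1 had a log2 fold change of -0.08 (SE 0.22) and Atp5g2 was under the filter. Sdha was at 290, 298, 332 and 271 CPM in young, 96.0, 99.5 and 150 in vehicle and 123, 163 and 131 in ABT-737 libraries, with both old groups under the young range and a log2 fold change of -1.34 between vehicle and young, adjusted p = 0.0006093. The other subunit of the same catalytic head, the iron-sulfur protein Sdhb, had a log2 fold change of 0.35 (SE 0.31) and was not called. Atp5f1 was at 560 to 627 CPM in young, 21.8, 256 and 303 in vehicle and 158 to 202 in ABT-737 libraries. The lowest vehicle value was that of replicate 3. Cox5a was at 228 to 308 CPM in young, 78.6 to 159 in vehicle and 210 to 245 in ABT-737 libraries. Its ABT-737 and young ranges overlapped. With vehicle replicate 3 left out, 15 members were called, beside 11.3% of all genes called lower, and with young replicate 3 left out, 8, beside 7.21%.

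Of the 7 members called lower in old kidney, 6 were also among the 13 called lower in old liver (Atp5f1, Ndufb5, Sdha, Sdhd, Uqcrc2 and Uqcrfs1), which was 85.7% of the kidney and 46.2% of the liver members called. Over all 5317 genes tested in both tissues, 179 were called lower in both, which was 56.6% of the 316 in kidney and 33.0% of the 543 in liver, so sharing was common beyond the members. No library is shared by these comparisons, although the same animals may have given both tissues. In liver the called members also had long transcripts in the deposited table, with a median of 1309 bases against 631.5 for those not called, and Spearman's correlation of fold change with length over the 73 members was -0.36 (0.07 over all genes). These are descriptions over genes measured in the same libraries. In kidney the same medians were 1309 and 654 bases. The part of transcript length in the decrease was not tested. Ndufb5, Uqcrc2 and Atp5f1 also share exon bases with genes on the opposite strand, Mrpl47 over 616, Pdzd9 over 504 and Wdr77 over 337 bases. Cox5a, Ndufb6 and Atp5a1, called lower in liver, share 269, 257 and 129 bases in that way. On their own strand, Atp5o shares 287 bases with Donson, and Ndufb2, called lower in kidney, 145 with Gm42420. In all, 29 of the 84 members share exon bases with another gene. The use of strand in counting is not given in the sources used here, so the counts of these members are uncertain to that extent.

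Around the subunits, 8 of 20 citric acid cycle and pyruvate dehydrogenase genes were called lower in vehicle against young liver and none higher, with 19 negative. The share of all genes called lower was 10.8%, which also stands beside the lists below. Pdhb, a subunit of pyruvate dehydrogenase, was at 79.4 to 134 CPM in young and 4.36 to 18.7 in vehicle liver, a log2 fold change of -2.71 (SE 0.33). Of 9 other electron-transfer genes, 4 were called lower, including Etfa, which carries electrons from fatty acid oxidation and stood at 203 to 256 CPM in young, 8.73 to 64.2 in vehicle and 31.7 to 58.8 in ABT-737 libraries. Cytochrome c itself, Cycs, had a log2 fold change of -1.25 (SE 0.35). Of 34 assembly factors, 4 were called lower, including Cox11, a copper chaperone of complex IV (log2 -2.17), and Tmem70, of complex V (log2 -1.23). All 9 immune markers tested were called higher in vehicle liver, with a sum of 2125 to 2370 CPM against 308 to 422 in young, while hepatocyte markers summed to 77320 to 87310 CPM in vehicle and 84580 to 102700 in young libraries. Of 5 blood markers tested 4 were called higher (median log2 2.47), with sums of 396 to 1113 CPM in young, 2724 to 3317 in vehicle and 1163 to 2540 in ABT-737 liver. The part of the immune and blood transcripts in the liver decrease was not tested.

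With ABT-737, 2 members rose over vehicle in liver, Ndufb3 and Atp5g3, where 1.0% of all genes tested were called higher. Ndufb3, an accessory subunit of complex I, was at 114, 67.1, 78.3 and 84.4 CPM in young, 56.7, 46.8 and 66.8 in vehicle and 107, 96.7 and 163 in ABT-737 libraries, a log2 fold change of 1.11, adjusted p = 0.04331. The ABT-737 and vehicle libraries did not overlap. Atp5g3, with the values given above, differed from vehicle by 1.09 ± 0.29 (SE) on the log2 scale with adjusted p = 0.04963. Both calls sat at the threshold and were lost when vehicle replicate 4 or any 1 of the ABT-737 replicates was left out. Leaving out vehicle replicate 3 gave 14 members (19.2%) and leaving out vehicle replicate 5 gave 4 (5.48%), all called higher. Of all genes, 8.78% and 4.87% were then called in either direction, which includes 5.64% and 2.95% called lower. The median over 73 members was 0.33, with 61 positive and all 11 of complex IV, against -0.03 over all genes. Among the 73, Atp5l passed the filter only through ABT-737, which set its direction. Over the other 72 the median was also 0.33. Of the citric acid cycle list only Dld, the shared E3 subunit of the dehydrogenases, was called lower, with at most 1 count in any ABT-737 liver library. Immune markers were called lower in 9 of 9 cases, with the sum at 286 to 606 CPM.

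Old liver after ABT-737 differed from young liver in 4 of 73 members, a share of 5.48% beside 8.40% of all genes called in either direction. With those groups fitted alone, 20 members were called, 27.4% beside 21.6% of all genes, so the members' place against that background depended on the fit. Uqcrc2 fell by 1.94 on the log2 scale, at 17.3 to 30.4 CPM against 79.0 to 112 in young. Atp5f1 (-1.71) and Sdha (-1.09) were also lower, and these 3 were lower in vehicle liver too. Ndufs6, an accessory subunit of complex I, was higher at 571 to 609 against 297 to 414 CPM, a log2 fold change of 0.81, and was not called between vehicle and young liver. The median over the members was 0.22, and 0.20 without Atp5l. Leaving out 1 library at a time left 1 to 3 members called, the fewest without ABT-737 replicate 5. At most 6.89% of all genes were then called in either direction. Of the citric acid cycle list 5 of 20 were called lower, beside 5.27% of all genes.

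**Figure D3:**
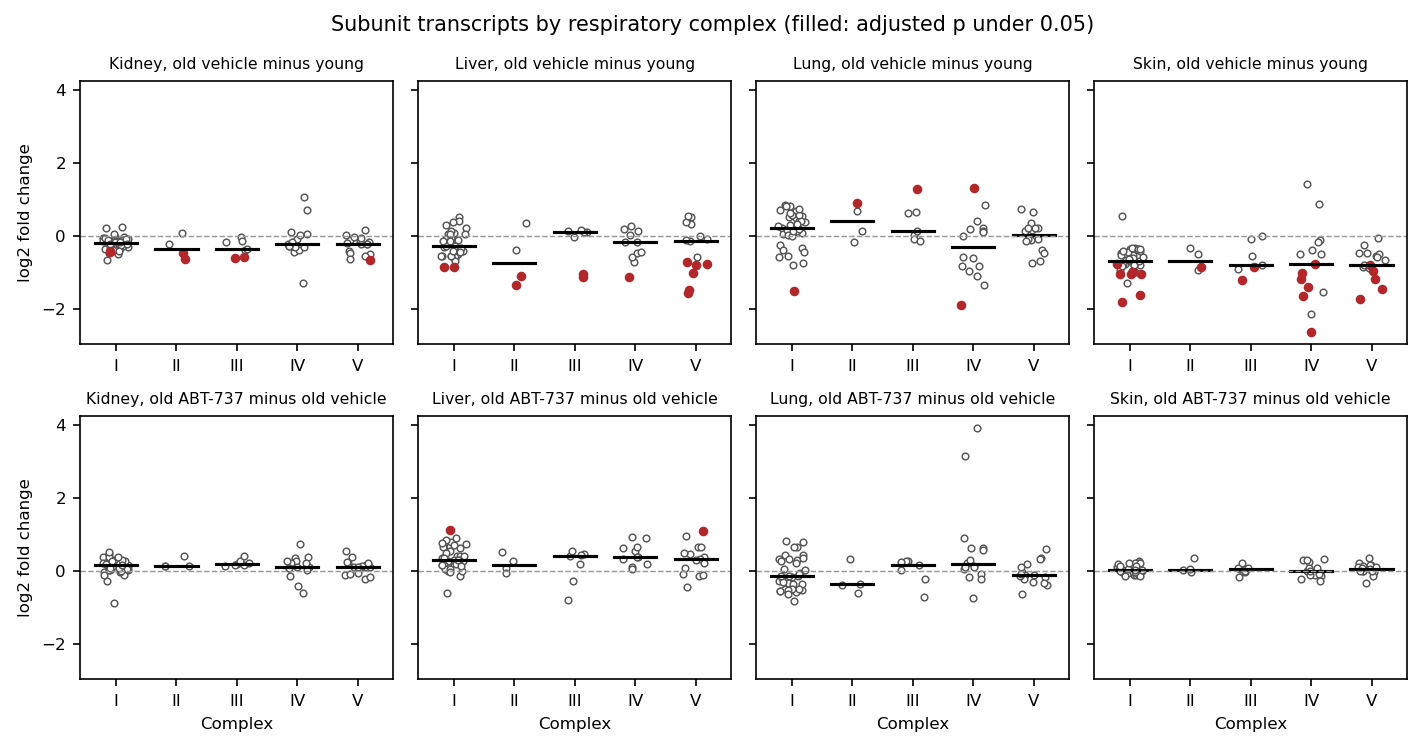
Log2 fold changes of each subunit by complex in the 4 tissues (vehicle against young in the top row, ABT-737 against vehicle below), with filled points at an adjusted p under 0.05. Skin vehicle points lie almost all under 0 (80 of 84), kidney and liver points mostly under 0, lung on both sides, and the only filled points for ABT-737 are Ndufb3 and Atp5g3 in liver.

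In lung, members were called in both directions. Between vehicle and young lung, 12.9% of all genes were called in either direction and 5 of 80 members, 6.25%, which is below that background. Uqcrfs1, Cox5a and Sdhb rose and Cox4i2 and Ndufa4l2 fell. Uqcrfs1 was at 68.2, 51.5, 64.0 and 56.1 CPM in young, 151, 106 and 182 in vehicle and 57.3, 86.4 and 124 in ABT-737 lung. The vehicle libraries were above every young library, by 1.29 ± 0.28 (SE) on the log2 scale with adjusted p = 0.01094. Cox5a was at 38.5 to 55.4 CPM in young, 91.2, 63.9 and 178 in vehicle and 41.2 to 89.5 in ABT-737 libraries. The vehicle group differed from young by 1.30 ± 0.34 (SE) on the log2 scale with adjusted p = 0.02437. Sdhb was at 98.8 to 158 CPM in young and 197 to 299 in vehicle libraries, a log2 fold change of 0.89 (SE 0.26). Cox4i2 was at 47.1, 59.1, 37.4 and 79.5 CPM in young lung, 21.5, 16.7 and 7.48 in vehicle and 16.1, 30.6 and 22.8 in ABT-737 lung, so both old groups lay under the young range, with a log2 fold change of -1.90 for vehicle. Ndufa4l2, a hypoxia-induced paralog of Ndufa4 (both counted here under complex I by name, although Ndufa4 is now known in complex IV), was at 23.6 to 42.3 CPM in young and 5.99 to 20.8 in vehicle libraries, a log2 fold change of -1.50. The highest Cox5a and Uqcrfs1 and the lowest Cox4i2 and Ndufa4l2 in this group were all from vehicle replicate 5. Without that library only Cox4i2 was called, 1.25% of the members beside 4.08% of all genes, with a log2 fold change of -1.56 (adjusted p = 0.03711). The others then stood at 1.10 for Uqcrfs1 (adjusted p = 0.06227), 0.78 for Cox5a (adjusted p = 0.2046), 0.68 for Sdhb (adjusted p = 0.2029) and -1.14 for Ndufa4l2 (adjusted p = 0.1669), and the median over the members went from 0.13 to 0.05. Without replicate 4 there were 10, 12.3% beside 19.6% of all genes. Without young replicates 1, 2, 3 and 4 in turn there were 3, 3, 2 and 2, where 6.77% to 7.45% of all genes were called.

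Of the citric acid cycle list in lung 3 of 20 were called higher (Dld, log2 1.30, Suclg1, log2 1.14, and Idh3a, log2 0.97), as was the coactivator Ppargc1b (log2 1.06) among 14 regulators, and none was called lower. No assembly factor of 45 was called, where 12.9% of all genes were called in either direction. Immune markers were called higher in 15 of 19 cases and proliferation markers summed to 185 to 227 CPM in vehicle against 49 to 59 in young lung. Of 6 blood markers 3 were called higher, with sums of 1417 to 2708 CPM in young and 2256 to 16850 in vehicle lung. Their part in the subunits that rose was not tested.

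ABT-737 against vehicle in lung called 0% of all genes by edgeR, with 1919 genes at an unadjusted p under 0.05 and 342 called by DESeq2. It called 0 of 80 members, with 6 members at an unadjusted p under 0.05 and 1 called by DESeq2 (Cox7a1). The numbered vehicle and ABT-737 lungs deviated together, and with the replicate number as a block 1 member was called, Cox7a1, with a log2 fold change of 2.73, adjusted p = 0.04949. That value came from ABT-737 replicate 4, which stood at 124 CPM of Cox7a1 against 25.8 and 8.50 in the other ABT-737 libraries and 2.62 to 9.39 in vehicle. Cox8b was likewise at 191 CPM in that library and at 10.95 and 6.26 in the others. The same library held Ucp1, the uncoupling protein of brown fat, at 242 CPM against at most 1.29 elsewhere in lung, and Adipoq at 450 CPM. Without ABT-737 replicate 5, 2 members (2.47%) were called, beside 1.01% of all genes. Without replicate 3, the library with the most blood transcripts, no member and 0% of all genes were called, and the members' median moved from -0.08 to 0.03. With replicate 4 left out, 676 of all genes and no member were called and the median moved to -0.42. Between ABT-737 and young lung, 2.55% of all genes and 0 of 80 members were called, with 7 members at an unadjusted p under 0.05 and 3 called by DESeq2 (Ndufa4, Cox4i2 and Cox7a1). The median of 0.08 became -0.29 without ABT-737 replicate 4, so its direction rested on that library. Without ABT-737 replicates 3, 4 and 5 in turn, 1, 2 and 1 members were called, where 2.23%, 11.2% and 0.297% of all genes were.

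Whether the change with age differed among kidney, liver and lung was tested with an interaction term in 1 fit of the 3 tissues. Of all genes tested 13.9% were called, and 14 of 81 members, a share of 17.3% near that background. Without lung vehicle replicate 5, an alternative chosen after seeing the data, 7.88% of all genes and 5 members, 6.17%, were called. The 5 with the smallest p were Uqcrfs1 (adjusted p = 0.0003392), Cox5a (adjusted p = 0.0009543), Uqcrc2, Atp5f1 and Cox7b. Without that library Uqcrfs1 (adjusted p = 0.002028), Cox5a (adjusted p = 0.01138), Uqcrc2 and Atp5f1 were called and Cox7b was not (adjusted p = 0.07701). In each of these 5, the log2 fold change of vehicle against young was negative in kidney and liver and positive in lung. It was -0.57, -1.05 and 1.29 for Uqcrfs1 in kidney, liver and lung, and -0.45, -1.12 and 1.30 for Cox5a. For Atp5f1 it was -0.67, -1.56 and 0.64, the lung value with adjusted p = 0.09247 and no overlap between the groups, at 262 to 268 CPM in young and 374 to 467 in vehicle lung. For the response to ABT-737 the interaction called 0.0992% of all genes and 0 of 81 members. At an unadjusted p under 0.05 were 13 members and 1556 of the 13107 genes tested. DESeq2 called 3 members (Ndufa1, Ndufa6 and Ndufb2), beside 1.15% of all genes.

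**Figure D4:**
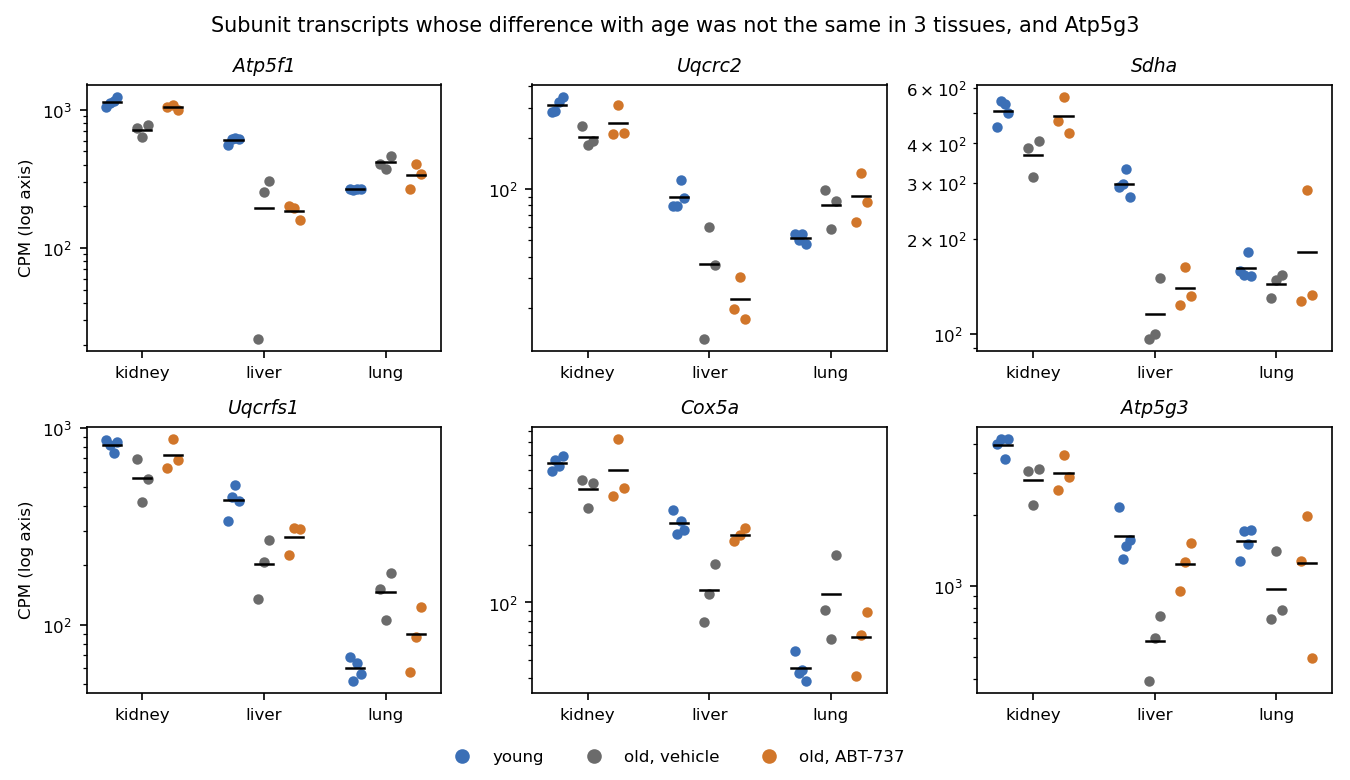
CPM on a log axis of 5 subunits whose age difference varied among the tissues, and of Atp5g3, in every library of kidney, liver and lung (1 point per library, bar at the group mean). The vehicle means of Uqcrfs1 and Cox5a lie under the young means in kidney and liver and above them in lung, and Atp5g3 in liver is lowest in the vehicle libraries (393 to 746 CPM).

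Of the 4 tissues, skin had the most members called lower in old mice. Between vehicle and young skin, 22 of 84 members (26.2%) were called lower and none higher, where 5.35% of all genes were called lower. All complexes took part, with 7 called of 37 tested in complex I, 1 of 4 in complex II, 2 of 7 in complex III, 6 of 15 in complex IV and 5 of 17 in complex V, and 1 pseudogene. The median log2 fold change was -0.77 against 0.05 over all genes, with 80 of 84 negative and complex medians between -0.68 and -0.79. Without Cox4i2, which passed the filter only with both old groups, the median was also -0.77 and 22 members were called lower. Ndufs5, an accessory subunit of complex I, was at 50.7, 38.6 and 41.8 CPM in young, 14.9, 13.2 and 9.66 in vehicle and 15.6, 14.5 and 13.1 in ABT-737 skin. The vehicle group differed from young by -1.80 ± 0.23 (SE) on the log2 scale with adjusted p = 0.0105. Atp5k was at 324, 265 and 243 CPM in young, 89.2, 87.2 and 77.3 in vehicle and 98.9, 74.4 and 77.4 in ABT-737 skin. The vehicle group differed from young by -1.72 ± 0.20 (SE) on the log2 scale with adjusted p = 0.008736. In both genes the old groups overlapped each other and lay well under the young libraries. The pseudogene Atp5k-ps2 (log2 -2.33) may share reads with Atp5k, and both values are uncertain to that extent. Cox7c, a small subunit of complex IV, was at 101 to 117 CPM in young and 26.8 to 48.8 in vehicle skin, a log2 fold change of -1.65 (SE 0.25). Uqcrc1, a core protein of complex III, was at 601, 468 and 487 CPM in young, 230, 241 and 205 in vehicle and 233, 237 and 203 in ABT-737 skin. The vehicle group differed from young by -1.20 ± 0.19 (SE) on the log2 scale with adjusted p = 0.01212. Ubiquitous Cox4i1, at 983 to 1223 CPM in young and 555 to 673 in vehicle skin, had a log2 fold change of -0.78. It was among the smallest called changes, with Ndufc2, an accessory subunit of complex I (-0.77), Atp5sl (-0.78) and Sdhc, a membrane anchor of complex II (-0.85). Cox5a (log2 -1.19) and Atp5c1, the gamma subunit of complex V (log2 -1.19), were called lower as well.

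ABT-737 against vehicle in skin called 0% of all genes by edgeR, with 1134 genes at an unadjusted p under 0.05 and 60 called by DESeq2. It called 0 of 84 members, with 0 members at an unadjusted p under 0.05 and 0 called by DESeq2. The median was 0.02 with 49 of 84 positive (39 under DESeq2's size factors). Against young skin, 14 of 84 members were called lower after ABT-737, where 3.17% of all genes were called lower, and none was called higher. Among them were Cox8b (-2.65), Cox7c (-1.92), Atp5k (-1.73), Uqcrc1 (-1.21) and, with smaller changes, the complex I subunits Ndufa1 (-1.17), Ndufb8 (-1.01) and Ndufa3 (-0.88) and Cox5a (-1.12), and the median was -0.64. These counts depended on single libraries, and the calls over all genes moved with them. For vehicle they were 3 (3.49%) without young replicate 1, 4 (4.65%) without young replicate 2, 10 (11.6%) without young replicate 3 and 7 (8.14%) without vehicle replicate 5, where 0.260%, 0.274%, 4.57% and 2.62% of all genes were called in either direction. For ABT-737 they were 42 (48.8%) without ABT-737 replicate 3, 4 (4.71%) without replicate 4 and 0 without replicate 5, where 19.6%, 0.415% and 0.0206% of all genes were called. Without young replicates 1, 2 and 3 they were 1, 3 and 6 (1.16%, 3.49% and 6.98%), beside 0.0467%, 0.133% and 0.499% of all genes. The medians kept to between -0.83 and -0.59 for vehicle and between -0.84 and -0.49 for ABT-737 when 1 library was left out.

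Of the muscle isoforms in skin, Cox8b passed the test for vehicle against young, and Cox6a2 and Cox7a1 did not. Cox8b fell most of all members, from 965, 673 and 621 CPM in young to 134, 154 and 75.0 in vehicle and 226, 58.8 and 74.1 in ABT-737 skin. The vehicle group differed from young by -2.64 ± 0.52 (SE) on the log2 scale with adjusted p = 0.01891. Its ubiquitous partner Cox8a was at 77.3 to 104 CPM in young and 54.5 to 68.1 in vehicle skin and was not called. Cox6a2 was at 2346, 1417 and 1701 CPM in young, 797, 795 and 305 in vehicle and 897, 373 and 363 in ABT-737 skin, with a log2 fold change of -1.53 and adjusted p = 0.06186 for vehicle. Cox7a1 was at 292 to 504 CPM in young and 27.6 to 124 in vehicle skin, with a log2 fold change of -2.15 and adjusted p = 0.05074. Neither passed the test, although the groups did not overlap in either. Cox6a1 ran the other way without passing the test, at 255, 327 and 337 CPM in young, 557, 440 and 677 in vehicle and 414, 879 and 748 in ABT-737 skin, a log2 fold change of 0.86 and adjusted p = 0.08635 for vehicle. Cox7a2, at 149 to 184 CPM in young and 117 to 206 in vehicle skin, overlapped. Of 14 skeletal muscle markers tested, all were negative in vehicle against young skin, with a median of -1.23 and 1 called lower, and their sums in young skin (85120 to 123300 CPM) did not overlap those of either old group. Hair follicle markers summed to 19.6 to 242 CPM in young, 59.1 to 12840 in vehicle and 60.7 to 30460 in ABT-737 skin. Of 6 blood markers 5 were called higher in vehicle skin (median log2 3.77). Their sums were 508 to 598 CPM in young, 1268 to 14730 in vehicle and 362 to 997 in ABT-737 skin. Of 3 brown adipocyte markers tested, Elovl3 was called higher (log2 2.47) and Ppara lower (log2 -2.35), with sums of 51.4 to 77.7 CPM in young and 151 to 375 in vehicle skin. The part of these cell types in the skin result was not tested.

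**Figure D5:**
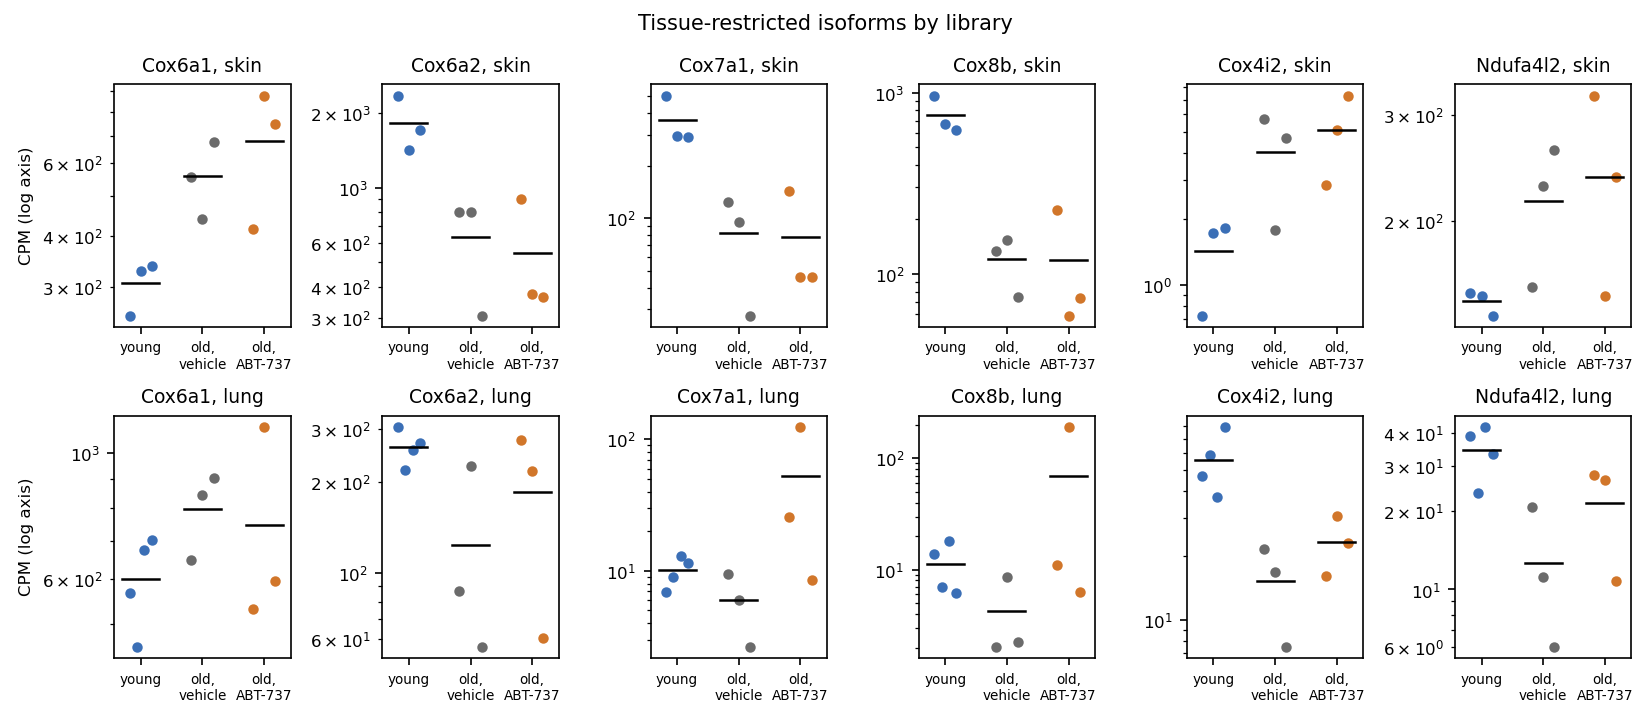
CPM on a log axis of 6 tissue-restricted or paired isoforms in skin (top) and lung (bottom), 1 point per library with the group mean as a bar. In skin the muscle isoforms Cox6a2, Cox7a1 and Cox8b are highest in the young libraries and Cox6a1 lowest there, and in lung Cox7a1 (124 CPM) and Cox8b (191 CPM) stand apart in ABT-737 replicate 4.

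In the wider lists of skin, 4 of 20 citric acid cycle genes were called lower in vehicle against young, with all 20 negative. The share of all genes called lower was 5.35%. Among the 4 were Ogdh, a subunit of the oxoglutarate dehydrogenase (log2 -0.997), and Mdh2, malate dehydrogenase (log2 -0.83). Cox17, a copper chaperone of complex IV, was at 190 to 261 CPM in young, 75.3 to 124 in vehicle and 88.4 to 113 in ABT-737 skin, a log2 fold change of -1.12 (SE 0.23). It was the only one of 49 assembly factors called. Ndufab1, the acyl carrier protein of complex I, which the naming pattern does not take in, had a log2 fold change of -1.52 (SE 0.26) in vehicle and of -1.18 (SE 0.26) in ABT-737 skin against young. None of 15 regulators was called in vehicle against young skin. 11 of 13 immune markers tested were called higher in vehicle skin, and their part in the subunits' decrease was not tested.

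Not every member could be tested. Cox7b2 and Cox8c, germ-line isoforms, had at most 1 count in any library, and Uqcrb at most 16, and these 3 were tested in no fit. Beyond them, Cox4i2 was under the filter in kidney, Atp5g2 in lung and Cox6b2 with 2 pseudogenes in skin. In liver, Atp5g2, Atp5s, Cox4i2, Cox6a2, Cox6b2, Cox7a1, Cox8b and Ndufa4l2 were under it. So 80, 73, 80 and 84 genes were tested in kidney, liver, lung and skin, of which 4 in skin were pseudogenes.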

How the data were processed

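The members and all gene lists were chosen with earlier results of these data known. Bulk 3′-end libraries (MARS-seq) were sequenced from kidney, liver, lung and skin. The deposited values are whole-number read counts per gene, made by the authors, in 2 tables, of which the second holds skin alone. The submitters' processing notes name bcl2fastq, HISAT 0.1.5, HOMER and mm10. Whether molecule barcodes were collapsed and strand was used is not given in the sources used here. Replicates are numbered samples of a group, so p-values measure only the spread between these libraries.

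For each tissue, all 3 groups entered 1 fit in edgeR 4.0.16 (R 4.3.3, TMM scaling, filterByExpr by group, quasi-likelihood test), with Benjamini-Hochberg adjustment over all genes tested and a threshold of 0.05. Standard errors were taken as the log2 fold change divided by the square root of F. Young tissues, and the interaction of tissue with age or drug, were tested in fits across kidney, liver and lung. No library repeated another within counting noise. Alternatives were DESeq2 1.42.0, its size factors, total counts, other filters, a replicate block, the compared groups alone and leaving out each library. Vehicle and ABT-737 lungs of the same number deviated together (correlations of 0.18, 0.30 and 0.43), which was the only comparison paired by that rule. The fits were also run on simulated counts with a common mean per gene over all groups and a set of genes changed in 1 group. Such counts do not reproduce single libraries that stand apart, and no result here rests on that run. Named members were those called in a comparison, or where more than 8 were called the 4 highest and 4 lowest, beside fixed isoform pairs and core subunits. In young tissues they were the 3 highest and 3 lowest, and for interactions the 5 smallest p. Sdhd, Atp5c1 and Ndufb6 in liver and Atp5c1 in skin were named after their values were seen.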

Additional observations from a re-analysis of the deposited data

Results flagged for a closer look

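In groups of 4, a library was singled out when the ratio of its gap to the group's range was above Dixon's critical value, which chance gives in about 1 of 20 groups, and 75 groups were looked at. Kidney young replicate 4 stood apart in Cox6a1, at 3307 CPM against 2712 to 2781 in the other 3 young kidneys, and in Ndufv1, the flavoprotein core of complex I, at 659.1 CPM against 532.8 to 552.8. Neither gene was called in kidney. Liver young replicate 1 stood apart in the summed share of the members, at 2.751% of counts, and in Ndufa4, at 83.26 CPM. The difference between vehicle and young varied among kidney, liver and lung in 14 members by the interaction test, 17.3% of those tested beside 13.9% of all genes, and in 5 (6.17% beside 7.88%) without lung vehicle replicate 5.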

How the results depend on the processing

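Counts below are of members called. Depth limits liver most, where 11 members were under the filter. With DESeq2 there was 1 in kidney for ABT-737 against vehicle and 1 against young, 1 and 3 in lung, 42 and 42 in skin for vehicle and ABT-737 against young, and 22 and 3 for the interactions with age and drug. In these skin and interaction fits that was 50%, 50%, 27.2% and 3.70% of the members, beside 18.7%, 14.9%, 18.3% and 1.15% of all genes. In the kidney and lung fits 2.06%, 3.17%, 2.86% and 6.55% of all genes were called. With no filter beyond 1 count there were 4 in liver and 2 in lung for ABT-737 against vehicle, 4 in lung and 23 in skin (25.8% beside 5.74% of all genes) for ABT-737 against young, and 2 for the drug interaction. Of all genes, 3.57%, 2.04%, 4.57% and 0.406% were called in those fits other than skin, in that order. With at least 10 counts in every library there was 1 in liver for ABT-737 against vehicle and 1 against young, beside 4.95% and 4.05% of all genes. With total counts there was 1 in kidney for ABT-737 against young, beside 2.16% of all genes. With the compared groups alone there were 15, 9 and 0 for vehicle against young in kidney, vehicle against young in lung and ABT-737 against vehicle in liver, and 20 and 1 for ABT-737 against young in liver and lung, where 16.9%, 19.4%, 2.16%, 21.6% and 4.30% of all genes were called. With the replicate block there were 0, 4, 0 and 0 for vehicle against young in kidney, liver, lung and skin, where 3.32%, 5.21%, 2.79% and 0% of all genes were called, 0 for ABT-737 against vehicle and 0 against young in liver, 1 in lung for ABT-737 against vehicle and 0 in skin for ABT-737 against young. Except in lung between vehicle and ABT-737, numbers did not pair the samples by the correlation of their deviations. The cause of these shifts was not tested.

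Leaving out 1 library gave 2 to 6 in kidney, 8 to 15 in liver, 1 to 10 in lung and 3 to 17 in skin for vehicle against young. The share of all genes called in either direction moved as well. It was at most 15.8% in kidney, 15.6% to 24.7% in liver, 4.08% to 19.6% in lung and 0.260% to 8.99% in skin. For ABT-737 against vehicle, leaving out 1 library gave 0 to 14 in liver and 0 to 2 in lung, beside at most 8.78% and 5.42% of all genes. For ABT-737 against young it gave 0 to 3 in kidney, 1 to 3 in liver, 0 to 2 in lung and 0 to 42 in skin. Of all genes, at most 2.19%, 6.89% and 11.2% were then called in kidney, liver and lung, and 0.0206% to 19.6% in skin. Leaving out lung vehicle replicate 5, lung ABT-737 replicate 3 or 4, chosen after seeing the data, gave 5 to 15 for the interaction with age and 0 for that with the drug. Of all genes, 7.88% to 15.3% and 0.120% to 0.796% were then called. The median log2 fold change of the members between young tissues was 1.82 and 1.88 for kidney against lung with DESeq2's size factors and total counts, 0.70 for liver against lung with total counts, and 0.40 and 1.203 for kidney against liver. Leaving out 1 library moved that last median between 0.52 and 0.62. The median for ABT-737 against young lung ran from -0.29 to 0.21. Of 809 values under an alternative of genes named because the main fit called them, 602 kept direction and passed. Of the rest, 207 kept direction and did not pass, and 0 reversed. Isoform pairs and core subunits that were not called are not among them. The genes were chosen on the same libraries, and the filter had set the direction of some between young tissues. A kept direction was thus largely fixed in advance.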
